A study of Mus musculus with 16 samples.

Results

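RNA levels of 10 ependymal and ciliary genes were described in the mouse striatum, of 17097 genes measured in all. The genes were matched by symbol: Foxj1, Rsph1, Ccdc153, Tmem212, Dynlrb2, Rarres2, Tekt1, 1700009P17Rik, Ak7 and Dnah11. Each of the 10 was found in all 16 libraries and passed the filter on low values in every comparison. The mice were wild-type C57BL/6J males aged 63 days, and whole striata were taken 2 h after an injection of CNO (clozapine N-oxide), at a dose of 1 mg/kg, or of vehicle. CNO is a synthetic ligand for designer receptors, and the series title names activation of Gi signalling in striatal astrocytes. RNA came either from ribosomes pulled down through a hemagglutinin tag (immunoprecipitate, IP) or from the cleared lysate of the tissue (input). The labels call the captured ribosomes astrocyte-specific, and they name neither the promoter or virus that carried the tag nor the receptor. This gives 4 groups of 4 libraries: IP of CNO-treated mice (CNO IP), IP of vehicle-treated mice (vehicle IP), and the inputs of both (CNO input, vehicle input). Sample titles number the libraries 2 to 5 within each group. The titles carry 8 mouse codes, each with 1 IP and 1 input library, while the series text speaks of 4 mice. Each code was read as 1 animal. Should several codes stem from the same animal, the spread behind the p-values would be partly technical.

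Ependymal cells line the brain ventricles, including the wall that borders the striatum, and each carries a tuft of motile cilia that moves cerebrospinal fluid. A motile cilium is built on doublet microtubules, on which dynein arms generate the bending and radial spokes and a central pair coordinate it. Foxj1 and the RFX factors are transcription factors that switch on the genes for these parts. RFX factors bind a DNA element called the X-box, an imperfect inverted repeat whose arms are separated by a short gap; GTTGCC is one common arm, called its core here.

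The gene starts were inspected for this element first, because the RNA levels reported further on concern genes known to share these regulators. RefSeq promoter sequence (assembly GRCm38.p6, 250 bases before the start) was at hand for 10 promoters of 7 of the genes. These genes are Ccdc153, Tmem212, Dynlrb2, Tekt1, 1700009P17Rik (listed there as Cfap126), Ak7 and Dnah11. The X-box core GTTGCC, searched on both strands, was found in 3 of the 10 promoters, those of Ccdc153, Dynlrb2 and Tekt1, and in 10.4% of 32851 RefSeq promoters. The longer X-box consensus, searched on both strands with a gap of 1 to 3 bases, overlaps the core. It was found in 6 of the 10 promoters and in 29.6% of all promoters. The forkhead motif TGTTTAC was found in 1 of the 10, that of Ak7, and in 3.17% of all. A match describes letters in a window and is not a binding site. The windows with the core are shown 5′ to 3′ on the gene's strand, with the core and consensus matches in capitals. They lie at chr9:44240517-44240675 (plus strand), chr8:116504855-116504976 (plus strand) and chr11:72361883-72362042 (minus strand).
Ccdc153: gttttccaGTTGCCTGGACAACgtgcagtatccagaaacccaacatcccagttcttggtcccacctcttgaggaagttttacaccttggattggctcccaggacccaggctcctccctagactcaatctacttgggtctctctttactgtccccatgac
Dynlrb2: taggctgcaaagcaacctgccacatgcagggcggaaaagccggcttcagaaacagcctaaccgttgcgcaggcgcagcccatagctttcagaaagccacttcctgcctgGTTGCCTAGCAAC
Tekt1: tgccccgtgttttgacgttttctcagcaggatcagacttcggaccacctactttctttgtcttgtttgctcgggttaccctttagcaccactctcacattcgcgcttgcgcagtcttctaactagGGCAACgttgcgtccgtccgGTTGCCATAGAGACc
In Ccdc153 the core GTTGCC ran from base 152 to base 147 before the RefSeq start, in Dynlrb2 from base 51 to base 46, and in Tekt1 from base 15 to base 10. Tekt1 held another core on the opposite strand, from base 35 to base 30 before the start. The other of the 2 RefSeq promoters of Tekt1 held no match. The RefSeq starts are not always those of the gene coordinates given further on. By those coordinates the Tekt1 window lies inside the gene, and the Dynlrb2 window ends past the gene start.

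The libraries held 52.1 to 61.5 M reads (M, mega) in IP and 32.8 to 40.3 M in input. The authors' values are log2 CPM, read counts scaled to a library's normalized size, and levels are shown here as CPM. Libraries with the number 5 stood apart for these genes. CNO IP 5 was the lowest of its group for 10 of the 10 genes, vehicle IP 5 for 9, CNO input 5 for 7 and vehicle input 5 for 8. The exception in vehicle IP was Foxj1, which was lowest in library 3. The summed level of the 10 genes was 277, 261, 231 and 199 CPM in CNO IP 2 to 5, against 378, 268, 351 and 251 CPM in vehicle IP 2 to 5. The medians of the 10 genes are therefore also given without the number 5.

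Compared per kilobase of exon (union of GENCODE exons), Foxj1 had the highest value of the 10 genes in each of the 4 groups. In CNO IP it averaged 49.2 ± 2.32 CPM per kb and in vehicle IP 63.4 ± 10.4 CPM per kb (SD, n = 4 each). Rarres2 came next at 14.2 ± 3.04 CPM per kb in CNO IP and 18.0 ± 5.75 CPM per kb in vehicle IP, and its libraries did not reach the Foxj1 range in either group. The exon union was 2656 bases for Rarres2 and 2623 for Foxj1. A union can be longer than the main transcript, which lowers the value, so the order holds for this divisor only. Tmem212, Tekt1, Dynlrb2, Rsph1 and Ccdc153 followed with means of 5.84 to 10.5 CPM per kb in CNO IP and 8.16 to 14.3 CPM per kb in vehicle IP. The libraries of neighbours in this middle order overlapped in both groups, as did those of Rarres2 and Tmem212. Ak7 and 1700009P17Rik were lower, at 2.75 ± 1.17 and 1.68 ± 0.223 CPM per kb in CNO IP, and Dnah11 was lowest at 0.977 ± 0.229 CPM per kb in CNO IP and 1.18 ± 0.306 CPM per kb in vehicle IP.

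**Figure D1:**
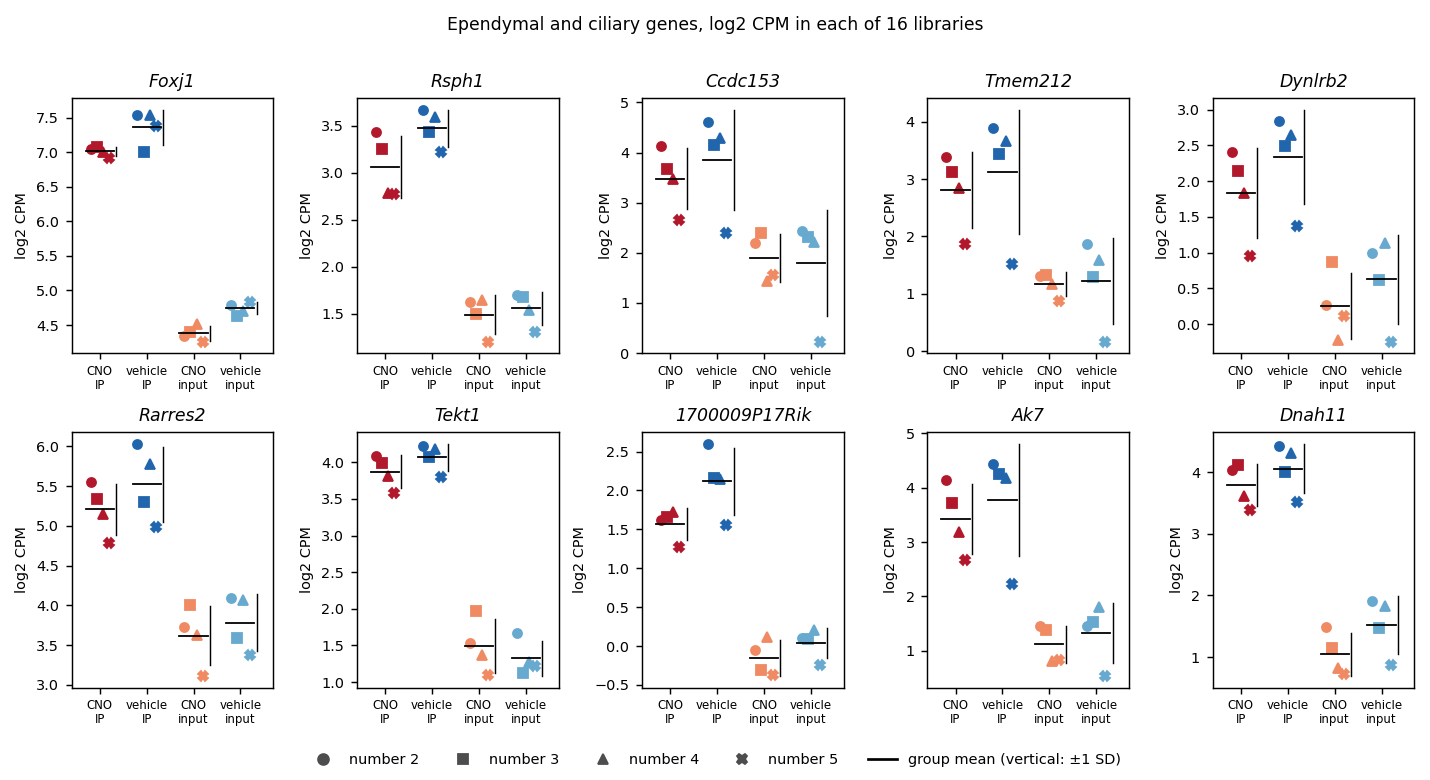
log2 CPM (vertical axis) of each of the 10 genes in the 16 libraries, in the order CNO IP, vehicle IP, then the inputs of CNO and of vehicle mice. Symbols mark the number in the sample title, horizontal lines the group mean and vertical lines ±1 SD (n = 4). Within CNO mice and within vehicle mice the IP libraries lie above the input libraries for each gene, except Ccdc153 and Tmem212 in vehicle mice, where IP 5 lies among the input libraries.

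The first comparison asks whether the captured ribosomes carried more or less of these transcripts than the whole lysate. Transcripts of the 10 genes were higher in IP: 10 of 10 passed the test in CNO mice and 10 of 10 in vehicle mice (limma, Benjamini-Hochberg adjusted over all genes, threshold 0.05). This fit did not pair the IP and input of a mouse. Over all genes tested, 40% were called higher and 35.1% lower in IP in CNO mice, and 37.6% higher and 37.3% lower in vehicle mice. The median log2 ratio of the 10 genes was 1.68 in CNO mice, where it was 0.04 over all genes, and 2.07 in vehicle mice, where it was 0.00 over all genes. Without the number 5 in every group the medians were 1.83 in CNO mice and 2.12 in vehicle mice, and 10 of 10 passed in both. Single genes ranged between 1.57 and 2.75 in CNO mice and between 1.71 and 2.75 in vehicle mice. Between 0.83% and 8.91% of the genes tested had a larger ratio than a given one of the 10. The 4 IP libraries lay above the 4 input libraries for 10 genes in CNO mice, where 37.5% of all genes lay apart and higher and 32.6% apart and lower, and for 8 genes in vehicle mice, where the shares were 34.6% and 34.5%. With upper quartile scaling the median of all genes became -0.17 in CNO mice and -0.15 in vehicle mice, and the 10 genes still passed in both. That scaling also turned the split of calls over all genes: 4877 higher and 7249 lower in CNO mice against 6315 and 5546 with the deposited scaling, and 4899 higher and 7132 lower in vehicle mice against 5978 and 5924.

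Foxj1 encodes the forkhead factor that drives the motile cilium programme. It lies on GRCm38 at chr11:116330704-116335399 on the minus strand. Its levels were 132, 135, 128 and 121 CPM in CNO IP, against 20.3, 21.2, 22.8 and 19.1 CPM in CNO input. Vehicle IP libraries had 186, 128, 185 and 167 CPM, against 27.7, 24.9, 26.0 and 28.6 CPM in vehicle input. The IP and input libraries were far apart in both kinds of mice, and vehicle IP 3 stood below the other vehicle IP libraries. The log2 ratio of IP over input was 2.63 (SE 0.06, adjusted p = 7.0e-10 by limma) in CNO mice and 2.62 (SE 0.12, adjusted p = 7.7e-08) in vehicle mice. The number 5 libraries, low for most of the other genes, differed from the mean of the other 3 for Foxj1 by -0.16 to 0.13 on the log2 scale in the 4 groups.

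Dnah11 encodes a heavy chain of the outer dynein arm, the motor that drives the beat. It lies at chr12:117877982-118199043 on the minus strand and overlaps Cdca7l on the opposite strand. Its levels were 16.4, 17.4, 12.2 and 10.5 CPM in CNO IP, against 2.80, 2.21, 1.76 and 1.64 CPM in CNO input. The vehicle IP values were 21.3, 15.9, 19.8 and 11.4 CPM, against 3.74, 2.77, 3.54 and 1.81 CPM in vehicle input. No IP library came near an input library. IP over input came to a log2 ratio of 2.75 (SE 0.21, adjusted p = 9.1e-07 by limma) in CNO mice and 2.54 (SE 0.27, adjusted p = 2.5e-05) in vehicle mice. Whether the counting kept the strands apart is not given in the sources used here. The overlapping Cdca7l had a log2 ratio of the opposite sign, -0.80 (adjusted p = 0.0400) in CNO mice and -0.70 (adjusted p = 0.0965) in vehicle mice.

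Dynlrb2 encodes a roadblock-type light chain of dynein. It lies at chr8:116504974-116515915 on the plus strand. Its levels were 5.31, 4.41, 3.56 and 1.93 CPM in CNO IP, against 1.20, 1.82, 0.849 and 1.08 CPM in CNO input. In vehicle IP they were 7.16, 5.64, 6.26 and 2.58 CPM, against 1.99, 1.54, 2.18 and 0.838 CPM in vehicle input. The groups did not overlap in either kind of mouse, but the number 5 IP libraries were near the input range. On the log2 scale the ratio was 1.58 (SE 0.33, adjusted p = 0.00141 by limma) in CNO mice and 1.71 (SE 0.39, adjusted p = 0.00320) in vehicle mice. Its paralog Dynlrb1, a light chain of the cytoplasmic dynein that most cells use, went the other way, with 64.9 ± 2.33 CPM in CNO IP against 86.8 ± 1.40 CPM in CNO input (SD, n = 4 each). In vehicle mice Dynlrb1 stood at 68.2 ± 4.16 CPM in IP against 87.5 ± 6.40 CPM in input. It was called lower in IP in both, with log2 ratios of -0.42 (adjusted p = 1.3e-05) in CNO mice and -0.36 (adjusted p = 6.6e-04) in vehicle mice.

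Rsph1 encodes a component of the radial spoke head. It lies at chr17:31255019-31277383 on the minus strand, with an unnamed antisense model on the other strand. Its levels were 10.8, 9.53, 6.88 and 6.82 CPM in CNO IP, against 3.07, 2.82, 3.11 and 2.29 CPM in CNO input. Vehicle IP libraries had 12.7, 10.8, 12 and 9.29 CPM, against 3.24, 3.19, 2.91 and 2.47 CPM in vehicle input. The groups were well apart in both. Its log2 ratio of IP over input was 1.57 (SE 0.17, adjusted p = 1.3e-05 by limma) in CNO mice and 1.92 (SE 0.13, adjusted p = 8.7e-07) in vehicle mice.

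Tekt1 encodes a tektin, a filament protein inside the doublet microtubules. It lies at chr11:72344722-72362442 on the minus strand. Its levels were 17, 15.9, 14.1 and 11.9 CPM in CNO IP, against 2.88, 3.92, 2.58 and 2.13 CPM in CNO input. The vehicle IP values were 18.6, 16.9, 18.1 and 14.0 CPM, against 3.17, 2.18, 2.41 and 2.33 CPM in vehicle input. Every IP library lay far above every input library. The log2 ratio was 2.38 (SE 0.18, adjusted p = 9.9e-07 by limma) in CNO mice and 2.75 (SE 0.14, adjusted p = 1.3e-07) in vehicle mice.

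1700009P17Rik is named Cfap126 in the annotation and encodes Flattop, a basal body and axoneme protein. It lies at chr1:171113918-171126967 on the plus strand. Its levels were 3.06, 3.16, 3.30 and 2.41 CPM in CNO IP, against 0.962, 0.801, 1.08 and 0.764 CPM in CNO input. In vehicle IP they were 6.07, 4.45, 4.44 and 2.94 CPM, against 1.06, 1.05, 1.15 and 0.838 CPM in vehicle input. It had the fewest reads of the 10 genes in CNO input, with 29 to 38 per library, and the groups nevertheless did not overlap. IP over input came to a log2 ratio of 1.72 (SE 0.18, adjusted p = 7.7e-06 by limma) in CNO mice and 2.08 (SE 0.22, adjusted p = 2.0e-05) in vehicle mice.

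Ak7 encodes an adenylate kinase, which interconverts adenine nucleotides, that is needed for normal ciliary beating. It lies at chr12:105705976-105782447 on the plus strand. Its levels were 17.6, 13.2, 9.11 and 6.33 CPM in CNO IP, against 2.72, 2.60, 1.76 and 1.78 CPM in CNO input. Vehicle IP libraries had 21.6, 19.1, 18.1 and 4.69 CPM, against 2.74, 2.89, 3.47 and 1.44 CPM in vehicle input. Vehicle IP 5 stood far below the other 3 libraries of its group, and it was still above each vehicle input library. On the log2 scale the ratio was 2.31 (SE 0.30, adjusted p = 7.3e-05 by limma) in CNO mice and 2.45 (SE 0.51, adjusted p = 0.00226) in vehicle mice.

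Ccdc153 and Tmem212 are known chiefly as marker genes of ependymal cells. Ccdc153 lies at chr9:44240676-44247306 on the plus strand. It had 17.5, 12.7, 11.1 and 6.33 CPM in CNO IP, against 4.57, 5.28, 2.69 and 2.92 CPM in CNO input. In vehicle IP it had 24.4, 17.8, 19.4 and 5.23 CPM, against 5.41, 4.97, 4.66 and 1.16 CPM in vehicle input. Vehicle IP 5 fell inside the range of vehicle input, so the groups overlapped in vehicle mice and not in CNO mice. Its log2 ratio of IP over input was 1.59 (SE 0.33, adjusted p = 0.00162 by limma) in CNO mice and 2.06 (SE 0.64, adjusted p = 0.0187) in vehicle mice.

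Tmem212 lies at chr3:27866066-27896368 on the minus strand, with a small nucleolar RNA model on the other strand. It had 10.4, 8.69, 7.18 and 3.65 CPM in CNO IP, against 2.48, 2.51, 2.24 and 1.82 CPM in CNO input. In vehicle IP it had 14.8, 10.8, 12.6 and 2.87 CPM, against 3.65, 2.45, 3.02 and 1.12 CPM in vehicle input. Here too vehicle IP 5 lay within the vehicle input range. The log2 ratio was 1.63 (SE 0.29, adjusted p = 5.3e-04 by limma) in CNO mice and 1.89 (SE 0.57, adjusted p = 0.0152) in vehicle mice. The vehicle call was lost with limma-voom on the recovered reads, where the log2 ratio was 1.88 and the adjusted p was 0.0568.

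Rarres2 encodes chemerin, a secreted protein that acts on the receptors Cmklr1 and Gpr1 and is bound by Ccrl2. It lies at chr6:48569696-48572789 on the minus strand and overlaps Lrrc61 on the opposite strand. Its levels were 46.9, 40.3, 35.7 and 27.7 CPM in CNO IP, against 13.2, 16.1, 12.4 and 8.65 CPM in CNO input. The vehicle IP values were 65.6, 39.3, 55.0 and 31.7 CPM, against 17.1, 12, 16.8 and 10.4 CPM in vehicle input. The groups were apart in both, with the number 5 libraries lowest in each of the 4 groups. IP over input came to a log2 ratio of 1.59 (SE 0.21, adjusted p = 8.3e-05 by limma) in CNO mice and 1.74 (SE 0.26, adjusted p = 3.0e-04) in vehicle mice. Lrrc61, whose reads may be shared without strand, had log2 ratios of 0.01 in CNO mice and 0.18 in vehicle mice, neither of them called.

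Taken by mouse, the log2 ratio of IP over the input of the same animal was above 0 for each of the 10 genes in each of the 8 mice. For Foxj1 it lay between 2.49 and 2.70 in the CNO mice and between 2.36 and 2.83 in the vehicle mice. Ccdc153, whose group spread was wide, lay between 1.11 and 2.04 in the CNO mice and at 1.84 or above in the vehicle mice. In vehicle mouse 5 both its IP and its input value were low. The lowest single ratio was that of Dynlrb2 in the CNO mice, at 0.84.

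**Figure D2:**
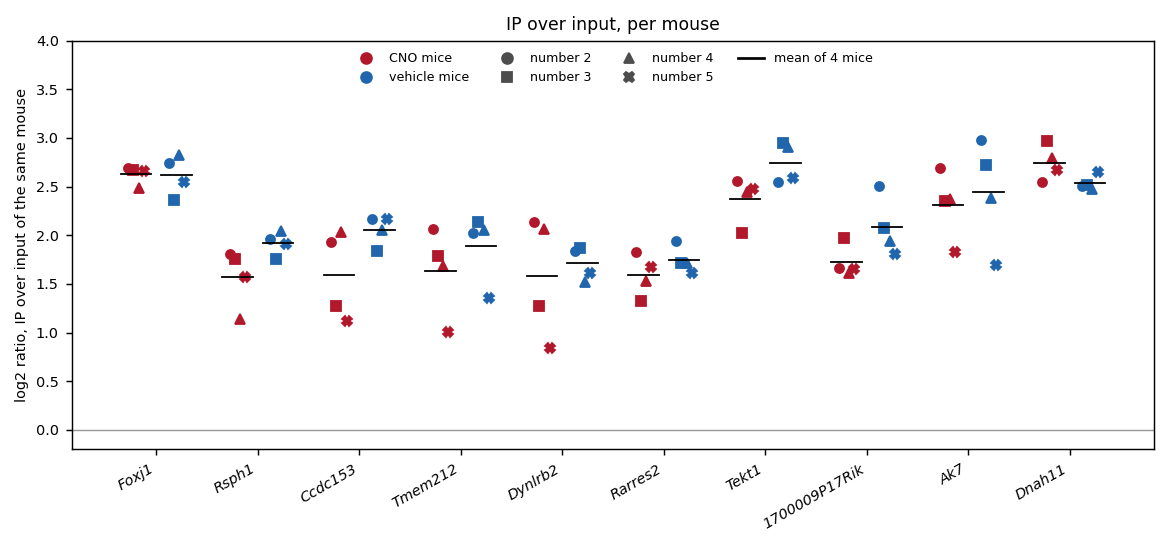
log2 ratio of IP over the input of the same mouse (vertical axis) for each of the 10 genes, CNO mice left of vehicle mice. Each symbol is 1 mouse, marked by its number, and lines are means of 4 mice. The ratios all lie above 0, with the lowest at 0.84 for Dynlrb2.

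In IP, several of the 10 genes varied more among mice than genes of like level. In vehicle IP the SD of log2 CPM was 1.00 for Ccdc153, 1.08 for Tmem212 and 1.04 for Ak7. The median SD of genes within 0.5 log2 CPM of each was 0.11, 0.14 and 0.12 in the same libraries, and 0.47%, 0.32% and 0.33% of those genes had a larger SD. For Tekt1 the SD was 0.19, and 19.7% of genes of like level had a larger one. Foxj1 had an SD of 0.07 in CNO IP, where 53.7% of genes of like level had a larger one, and of 0.25 in vehicle IP, where 5.52% had a larger one. In vehicle mouse 5, set against the mean of the other 3 vehicle mice, Ccdc153 stood at -1.96 on the log2 scale in IP and -2.10 in input. Tmem212 stood at -2.14 in IP and -1.42 in input of that mouse, and Ak7 at -2.06 and -1.06. In IP of CNO mouse 5 the differences were -1.09 for Ccdc153, -1.25 for Tmem212 and -1.02 for Ak7. In input of that mouse they were smaller, at -0.46, -0.40 and -0.38. Vehicle IP 2 was the highest of its group for 10 of the 10 genes.

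Other measures moved with the number 5. Summed levels of 7 central apparatus genes were 59.5, 48.2, 38.6 and 31.7 CPM in CNO IP 2 to 5, against 75.7, 62.9, 66.9 and 29.2 CPM in vehicle IP 2 to 5. Those of the 10 measured choroid plexus markers were 27.6, 20.8, 17.9 and 14.0 CPM in CNO IP, against 18.4, 22.8, 17 and 11.9 CPM in vehicle IP. In both groups of IP libraries the number 5 was lowest for both lists. Astrocyte markers, 16 of 16 measured, summed to 35341 to 39013 CPM in CNO IP and 33817 to 40822 CPM in vehicle IP, with vehicle IP 5 lowest. The 8 oligodendrocyte markers summed to 8025 to 10737 CPM in CNO IP and 5998 to 14421 CPM in vehicle IP, and library 5 was highest in each. None of these markers was at 0 in a group. Their part in the spread of the 10 genes was not tested. In these bulk samples fewer cells of a type and less RNA per cell cannot be told apart.

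**Figure D3:**
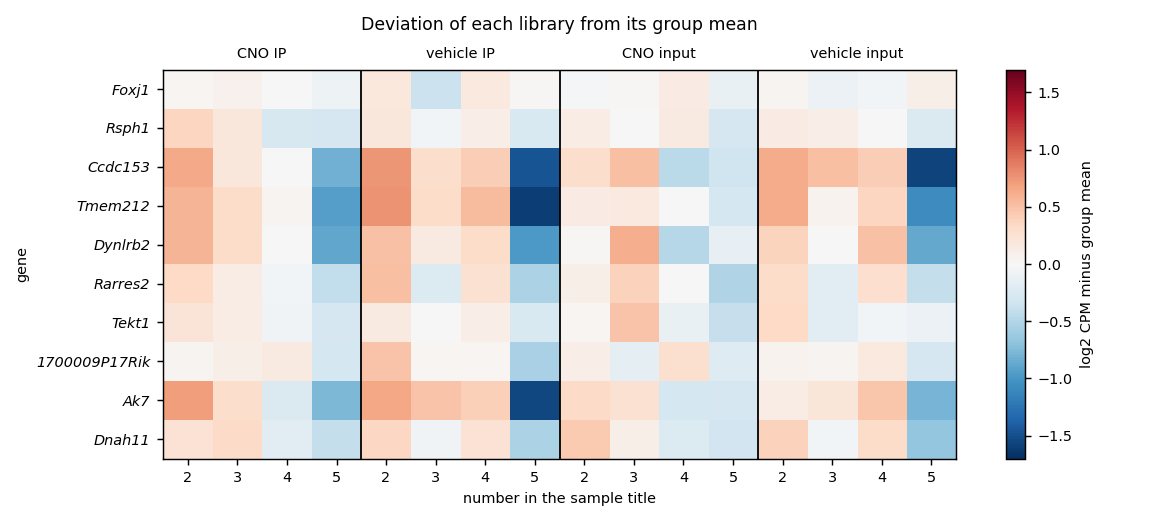
Deviation of log2 CPM from the group mean (colour, red above and blue below) for the 10 genes (rows) in the 16 libraries (columns, by group and number in the title). Columns with the number 5 are mostly blue, deepest for Ccdc153, Tmem212 and Ak7 in vehicle mice, while the Foxj1 row is pale except for vehicle IP 3.

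The second comparison asks whether CNO changed these transcripts in the captured ribosomes. None of the 10 passed the test by limma or by limma-voom, while 10.2% of all genes tested were called higher and 7.07% lower in CNO IP than in vehicle IP. All 10 differences were below 0, between -0.55 and -0.20 on the log2 scale with a median of -0.35, where the median of all genes was -0.01. The median depended on single libraries: it was -0.16 without CNO IP 5 and -0.53 without CNO IP 2, and -0.62 without vehicle IP 5 and -0.15 without vehicle IP 2. In each of these 4 fits the 10 values were below 0. At an unadjusted p under 0.05 stood 3 of the 10, against 29.6% of all genes. For 0 of the 10 did the CNO IP libraries lie apart from the vehicle IP libraries, against 12.8% of all genes apart and higher and 10.1% apart and lower. The 10 genes share libraries and deviate together, so their common direction is not 10 separate observations. Over all genes the split of calls turned with the scaling, with 1598 higher and 1102 lower as deposited, 1259 and 1945 with upper quartile scaling, and 1361 and 1466 with median-of-ratios scaling.

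Foxj1 had the smallest adjusted p of the 10, with a log2 difference of -0.35 (SE 0.11, adjusted p = 0.0672 by limma). Its CNO IP libraries at 121 to 135 CPM lay below 3 of the 4 vehicle IP libraries at 167 to 186 CPM, and vehicle IP 3 at 128 CPM lay among them. Without vehicle IP 3 the difference was -0.47 (adjusted p = 9.7e-04). It was also called lower with upper quartile scaling (-0.41, adjusted p = 0.0311), with median-of-ratios scaling (-0.38, adjusted p = 0.0452) and in a fit over all 16 libraries (-0.35, adjusted p = 0.020). The largest difference was that of 1700009P17Rik at -0.55 (SE 0.21, adjusted p = 0.112), with 2.41 to 3.30 CPM in CNO IP and 2.94 to 6.07 CPM in vehicle IP. It passed when vehicle IP 5 was left out (-0.74, adjusted p = 0.0146). Rsph1 stood at -0.41 (SE 0.17, adjusted p = 0.134) and Dynlrb2 at -0.50 (SE 0.39, adjusted p = 0.466). Ccdc153, Tmem212 and Ak7 had differences of -0.38, -0.32 and -0.35 with standard errors of 0.50 to 0.54, wider than the differences themselves. Without CNO IP 5 they stood at -0.10, -0.01 and -0.09, and without vehicle IP 5 at -0.87, -0.86 and -0.86, not called in either case. Rarres2 at -0.32, Dnah11 at -0.27 and Tekt1 at -0.20 had adjusted p-values of 0.350 to 0.515 by limma. Without the number 5 in every group, a choice made after seeing the data, the median of the 10 was -0.47, the 10 were again below 0, and 1700009P17Rik passed (-0.64, adjusted p = 0.0228).

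In whole lysate 0 of the 10 genes passed for CNO against vehicle by limma, 1 had an unadjusted p under 0.05, and 0.815% of all genes tested were called higher and 0.183% lower. The median difference of the 10 was -0.18, with 8 below 0 and 2 above, and limma-voom likewise called 0. Without the number 5 in every group the median was -0.30, with 9 below 0 and 1 above. Leaving out single libraries moved it to -0.05 without CNO input 5, where 5 genes were below 0 and 5 above, and to -0.37 without vehicle input 5, -0.11 without vehicle input 2 and -0.07 without vehicle input 4. Foxj1 was the one gene whose groups did not overlap, at 19.1 to 22.8 CPM in CNO input and 24.9 to 28.6 CPM in vehicle input, against 3.22% of all genes apart and higher and 4.03% apart and lower. Its log2 difference was -0.36 (SE 0.07, adjusted p = 0.0555 by limma). With upper quartile scaling it passed (-0.36, adjusted p = 0.0426), as it did without CNO input 4 (-0.41, adjusted p = 0.0495). The Foxj1 differences in IP and in input were thus nearly the same size.

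An interaction term fitted to all libraries gives the CNO effect in IP minus that in input, and it was called for 0 of the 10 genes by limma and by limma-voom. Over all genes 4.18% were called above 0 and 0.571% below 0, and the split was 680 and 93 as deposited but 544 and 198 with upper quartile scaling. The values of the 10 ran between -0.47 for Ccdc153 (SE 0.76) and 0.21 for Dnah11 (SE 0.36), with a median of -0.21, and 0 had an unadjusted p under 0.05. These standard errors do not pair the IP and input of a mouse. Without the number 5 in every group the median was -0.23, and leaving out single libraries put it between -0.46 without vehicle IP 5 and 0.02 without vehicle input 5. For Foxj1 the value was 0.01 (SE 0.14, adjusted p = 0.991).

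**Figure D4:**
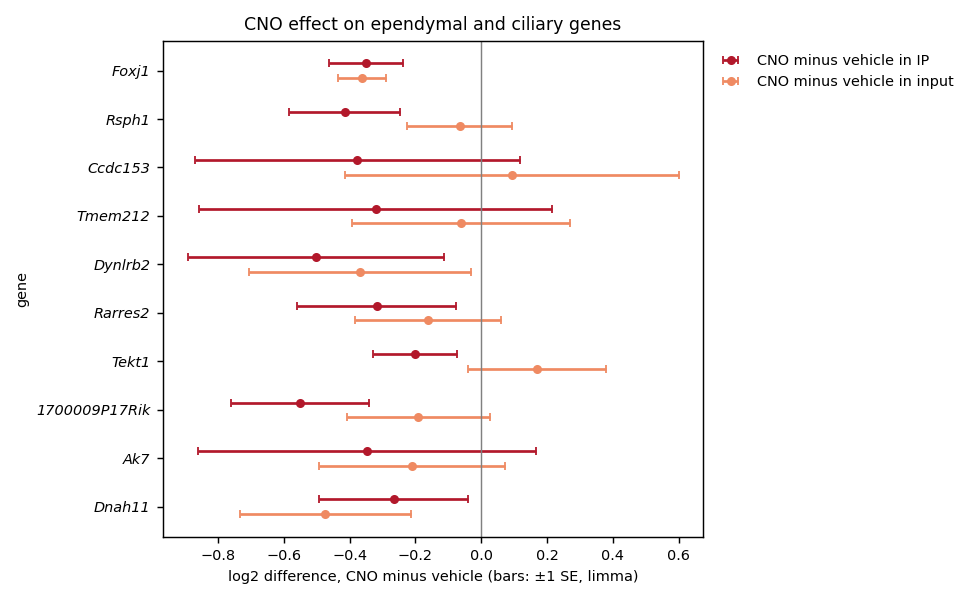
log2 difference CNO minus vehicle (horizontal axis) for the 10 genes, in IP and in input, with bars of ±1 SE from limma. The differences in IP all lie below 0, between -0.55 and -0.20, and none passed the test. In input 8 lie below 0 and 2 above.

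Other genes of the motile cilium were described from 8 lists of its parts and regulators, 82 genes of which 72 were tested. In CNO mice 57 of the 72 were called higher and 5 lower in IP than in input, and in vehicle mice 57 were higher and 4 lower, with median log2 ratios of 1.34 and 1.60. That is 79.2% higher in each. Over all genes tested, 40% were called higher and 35.1% lower in CNO mice, and 37.6% higher and 37.3% lower in vehicle mice. In vehicle mice the outer dynein arm list had 8 of 10 tested genes higher. They included the heavy chains Dnah9 (2.85, 31.3 CPM in IP against 4.22 CPM in input) and Dnah5 (2.79) and the intermediate chain Dnaic2 (2.67). Of 7 inner dynein arm genes 6 were higher, with Dnah10 (2.84), Dnah6 (2.63) and Dnali1 (2.61) the furthest. The radial spoke list, without Rsph1, had 8 of 8 higher, led by the spoke head gene Rsph4a (2.45), with Ropn1l (2.06) and Rtdr1 (2.06). The central apparatus had 6 of 7 higher, with Spag17 (3.06), Hydin (2.86) and Spef2 (2.48). Among nexin-dynein and ruler genes 6 of 9 were higher, with Iqcg (2.39), Ccdc40 (2.25) and Tcte1 (1.73), and among doublet lumen proteins 10 of 12, with Wdr16 (2.67), Ccdc19 (2.55) and 1700007K13Rik (2.21). Dynein assembly factors, which work in the cytoplasm, had 5 of 9 higher, and those furthest from 0 were Dnaaf1 (1.79), Heatr2 (1.19) and Spag1 (1.10).

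The regulators were mixed: 8 of 10 were higher and 2 lower in vehicle IP than in vehicle input. Trp73, a p53 family factor needed for multiciliated cells, stood at 2.57 and Ccdc78, a gene of basal body amplification, at 1.97. Mcidas, a coregulator that starts the multiciliated programme and acts in differentiating cells, was lower in IP, at 0.302 CPM in vehicle IP against 1.10 CPM in vehicle input (log2 ratio -1.87, adjusted p = 6.7e-05 by limma). A further 20 ependymal genes were listed, and 15 of the 18 tested were higher and 0 lower in vehicle IP than in vehicle input, among them Wdr63 (3.04), Stoml3 (2.80) and Iqca (2.46). In CNO mice 14 of 17 were higher. Intraflagellar transport, which also serves the single non-motile cilium of other cells, had a smaller median of 0.42 in vehicle mice, with 20 of 26 higher and 3 lower. Ift27 stood at 1.27, Ift122 at 1.07 and Ift20 at -1.14.

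Lists of other cell types give the scale of the capture in vehicle mice. Of all genes tested there, 37.6% were called higher and 37.3% lower in IP. Astrocyte markers were higher in IP for 16 of 16, with a median of 2.86 and with Atp1b2 (3.86), Slc1a2 (3.79) and Kcnj10 (3.65) furthest. Oligodendrocyte markers were higher for 6 of 8, with a median of 0.86 and with Cnp (1.30), Mag (1.30) and Cldn11 (1.13). Medium spiny neuron markers were lower for 10 of 10 (median -1.63; Tac1 at -2.43 and Adora2a at -2.06). Endothelial markers were lower for 8 of 8 (median -2.88; Cldn5 at -3.81, Pecam1 at -3.42 and Ly6c1 at -3.21), and microglia markers for 9 of 9 (median -5.10; Ctss at -5.79, C1qa at -5.42 and Tyrobp at -5.39). Of 9 choroid plexus markers 4 were higher, with Folr1 (2.12), Otx2 (1.65) and Prlr (1.31), and 1 was lower, Clic6 (-1.15). Ttr stood at -0.77 and was not called. In CNO mice 3 of the 9 were higher and 3 lower, where 40% of all genes were higher and 35.1% lower. Ttr was called lower there at -2.69 (adjusted p = 0.00109 by limma). Between CNO input and vehicle input Ttr differed by 1.85 (adjusted p = 0.0509 by limma). Between CNO IP and vehicle IP it differed by -0.07 (adjusted p = 0.972 by limma), and neither was called. Clic6 and Ttr were chosen for naming after their values were seen. Of 12 subventricular progenitor and neuroblast markers 6 were higher and 4 lower in vehicle mice, with Egfr at 2.92 and Top2a at -1.57. For so few genes, 50% higher and 33.3% lower is near the shares of all genes. The median of the 10 ependymal and ciliary genes, 2.07, lay between the medians of the oligodendrocyte and the astrocyte lists. That order was not tested.

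**Figure D5:**
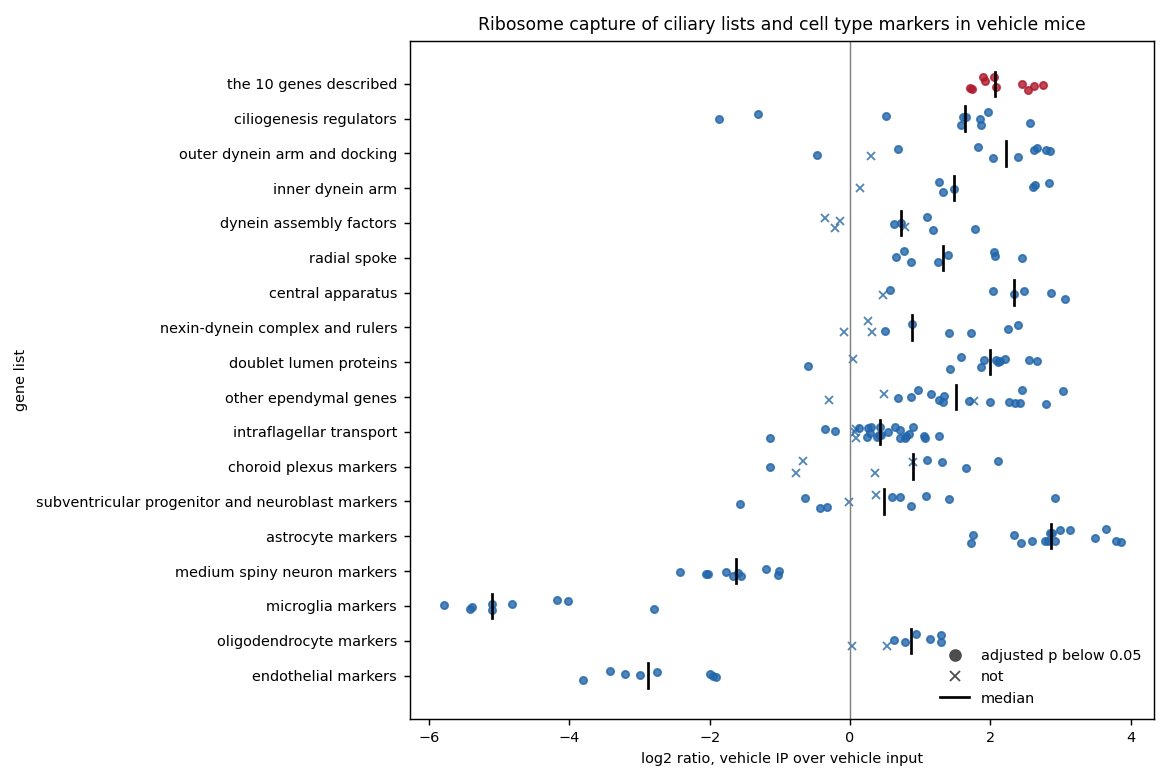
log2 ratio of vehicle IP over vehicle input (horizontal axis) for the genes of each list (rows). Circles passed the test at an adjusted p below 0.05, crosses did not, and vertical lines are medians. The 10 genes described (top row, red) all lie right of 0 with a median of 2.07, as do most genes of the ciliary lists.

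Under CNO, 9 of the 72 genes of the 8 cilia lists were called lower and 1 higher in CNO IP than in vehicle IP. That is 12.5% lower against 7.07% of all genes, 12.5% of the astrocyte markers and 15.4% of the intraflagellar transport genes. With upper quartile scaling 1945 of all 15598 genes were called lower, against 1102 with the deposited scaling. The 72 were fitted with the deposited scaling and without leaving out libraries. The median of the 72 was -0.29. The outer dynein arm list held 5 of the 9, from 10 tested, with Ttc25, a docking complex gene, at -0.50 (adjusted p = 0.00925 by limma), Dnaic1 at -0.43 (adjusted p = 0.0365) and Dnaic2 at -0.40 (adjusted p = 0.0331). Rfx2 fell to 6.86 CPM in CNO IP, against 11.3 CPM in vehicle IP (log2 difference -0.72, adjusted p = 0.00266), and Rfx3 to 109 CPM in CNO IP, against 140 CPM in vehicle IP (-0.36, adjusted p = 0.0196). Spag1, a dynein assembly factor, was also lower (-0.45, adjusted p = 0.00401 by limma). Rfx4, an RFX factor of neural progenitors and astrocytes, rose to 198 CPM in CNO IP, against 42.9 CPM in vehicle IP (2.21, adjusted p = 2.3e-07). Of the other ependymal genes 0 of 18 were called by limma and 3 had an unadjusted p under 0.05, with a median of -0.40. Intraflagellar transport had 4 of 26 lower and 0 higher, with Wdr19 at -0.33, Dync2li1 at -0.28 and Ift46 at -0.26. Astrocyte markers had 2 of 16 lower, Gja1 at -0.30 and S100b at -0.22, and the medium spiny neuron, microglia and oligodendrocyte lists had 0 called by limma and 0 at an unadjusted p under 0.05. Choroid plexus markers likewise had 0 called, with 1 at an unadjusted p under 0.05. Endothelial markers had a median of -0.28, close to that of the 72 cilia genes, with values between -0.63 and -0.04, 0 called by limma and 3 at an unadjusted p under 0.05. In CNO input against vehicle input their median was -0.30 and 2 of 8 were called lower, Cldn5 (-0.63, adjusted p = 0.0347 by limma) and Slco1a4 (-0.53, adjusted p = 0.0295). Slco1a4 was chosen for naming after its value was seen. The part of the endothelial markers in the values of the cilia genes was not tested. In the subventricular list Nes (1.66) and Egfr (0.43) rose and 0 fell.

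The 3 chemerin receptors, named because Rarres2 encodes their ligand, were lower in vehicle IP than in vehicle input, with log2 ratios of -3.01 for Cmklr1, -1.26 for Gpr1 and -1.05 for Ccrl2. In CNO mice Cmklr1 was instead called higher in IP than in input (2.18, adjusted p = 8.5e-09 by limma). There Ccrl2 was called lower (-0.79, adjusted p = 0.00527), and Gpr1 was not called (-0.77, adjusted p = 0.0586). Cmklr1 had 36.8, 39.5, 35.3 and 42.4 CPM in CNO IP, against 0.789, 0.509, 0.620 and 0.773 CPM in vehicle IP. The groups were far apart, and the log2 difference was 5.85 (SE 0.15, adjusted p = 3.2e-08 by limma). Gpr1 and Ccrl2 were not called, at 0.341 ± 0.130 CPM and 0.902 ± 0.186 CPM in CNO IP against 0.226 ± 0.0707 CPM and 1.00 ± 0.427 CPM in vehicle IP (SD, n = 4 each). The ligand gene Rarres2 itself stood at -0.32 in the same comparison and was not called.

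The genes most like the 10 over the 16 libraries were ranked by the root mean square difference between centred log2 profiles, among 16287 genes. Among the 10 nearest were Ubxn10, Ccdc40, Rsph4a, Vit, Kif19a, Hsd11b1, Fam179a, Ttc16 and Lrrc23, and these 9 had differences of 0.18 to 0.24, where the median of all genes was 1.13. Ccdc40 and Rsph4a stand in the cilia lists, and Kif19a is a kinesin that limits the length of motile cilia. Hsd11b1 is a metabolic enzyme that regenerates active glucocorticoid. Their log2 ratios of IP over input lay between 1.56 and 2.45 in CNO mice and in vehicle mice, which the ranking itself fixes, since the profile is high in IP and low in input. None of the 9 was called for CNO IP against vehicle IP by limma. The common profile is the median over the 10 described genes, so each of them helps to set it. Of these, 1700009P17Rik lay closest to it at 0.25, and Foxj1 furthest at 0.45. Nearer than Foxj1 were 683 genes, the other described genes among them.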

How the data were processed

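RNA was measured in 16 striatal libraries. Purification of the IP RNA used the RNeasy Micro Plus kit, and 100 ng of RNA per library went into the Nugen Ovation V2 preparation with enrichment of mRNA, per the labels' protocols. The submitters' processing notes name bcl2fastq 2.17, STAR, HTSeq, limma and build mm10. For the strand setting and the annotation, the sources used here give nothing. The deposited values are log2 CPM made by the authors with a prior count of 0.25. Whole reads, within 0.01 read, could be recovered for 100% of values. A duplicate line was dropped, and 2 lines sharing a date-like symbol were left unnamed.

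Differences between groups were fitted with limma 3.58.1 (R 4.3.3; lmFit, then eBayes with trend and robust settings) on the deposited log2 values. P-values were adjusted by Benjamini-Hochberg over the genes tested, and 0.05 was the threshold. Genes needed at least 15 reads in all and, in 4 libraries, a CPM equal to 10 reads in the median library. Fits used the groups compared, and the interaction used 16 libraries. The main fits did not pair the IP and input of a mouse, so the standard errors given are unpaired. For Ccdc153, IP over input in CNO mice, the SE was 0.33 in the main fit and 0.16 with the replicate block. Alternatives were limma-voom run on recovered reads, other scalings and filters, a pseudocount of 1 CPM, the replicate block and libraries left out. On simulated data with log2 changes of 1, the test recovered 99.0% of changed genes for vehicle IP against vehicle input and 96.9% for CNO IP against vehicle IP. The simulated counts had the same dispersion (spread beyond counting) for every gene and no deviation shared among libraries. In IP, several of the 10 genes varied more than genes of like level, so these shares do not show how often a change in them would be called.

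The 10 genes and the lists were chosen with earlier results of these data known, so counts over them are descriptions. From each list the 3 called genes with the log2 ratio furthest from 0 in vehicle IP over input were named. So were the 3 with the difference furthest from 0 in CNO IP over vehicle IP. A few genes that this rule names are not reported here. Coordinates are from the GENCODE annotation of GRCm38, and promoter sequence is from RefSeq. IP and input libraries of one mouse deviated together (correlation of deviations from group means 0.18 to 0.54, each library closest to that of its own mouse), so the number pairs them.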

Additional observations from a re-analysis of the deposited data

Results flagged for a closer look

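A library that lay far from the other 3 of its group was found in 2 of 40 gene and group combinations, judged by the gap to the nearest library over the range of the group, against Dixon's critical value. Chance gives about 1 such case in 20. In vehicle input 5, Ccdc153 had a log2 CPM of 0.22, where the nearest library of the group had 2.22, a gap of 0.903 of the range. In vehicle IP 5, Ak7 had a log2 CPM of 2.23, where the nearest had 4.18, a gap of 0.886 of the range. Both libraries are from vehicle mouse 5.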

How the results depend on the processing

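The 10 genes were called higher in IP than in input under each alternative run in CNO mice, and in vehicle mice under each except limma-voom, with 9 (Tmem212 was lost). No direction reversed for any of the 10 where it had been called. For CNO IP against vehicle IP, 0 were called as reported, and 1 was called lower with upper quartile scaling, with median-of-ratios scaling and with all 16 libraries in one fit (Foxj1 in each). Leaving out 1 library gave 0 to 1. The number 5 left out gave 1 (1700009P17Rik), and the number 5 left out with the replicate block gave 1 (Ccdc153, -0.59, adjusted p = 0.0228); both were added after seeing the data. For CNO input against vehicle input, upper quartile scaling gave 1 (Foxj1) and leaving out 1 library gave 0 to 1. The cause was not tested. The interaction called 0 under each alternative run.

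With the replicate number as a block, the count stayed at 10 for both IP against input comparisons and at 0 for the interaction, where the number stands for the mouse. For CNO against vehicle the numbers do not pair the samples: deviations of same-numbered libraries correlated at -0.17 to 0.18 in IP and -0.31 to 0.03 in input. The 0.18 was that of the number 5 in IP, where CNO IP 5 was closest to vehicle IP 5. The block fit called 1 in IP (Dynlrb2, -0.50, adjusted p = 0.0454) and 0 in input. 1700009P17Rik had 29 to 49 reads per input library. On a scale of log2(CPM + 1) its ratio in CNO mice was 1.06, and the added 1 CPM lowers it because the mean in CNO input was 0.901 CPM.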
